A study of Mus musculus with 8 samples.

Results

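The genes described are 10 components of the circadian clock (Arntl, Clock, Per1, Per2, Per3, Cry1, Cry2, Nr1d1, Nr1d2 and Dbp), taken by Ensembl identifier from the 55890 genes counted by RNA sequencing in the hypothalamus of female mice aged 16 weeks. Arntl is also called Bmal1. Of the 55890 genes, 32219 had any count and 18637 passed the filter on low counts, and all 10 clock genes were among these. POMC-C451Af/f mice carry a floxed allele of Esr1, the gene of estrogen receptor alpha, together with a Cre transgene driven by the Pomc promoter. The cysteine-to-alanine change that gives the line its name arises by this design only in cells in which that Cre was active. Membrane-initiated signalling of the receptor is lost by this design only in those cells. The control pools are labelled wildtype, while the study's methods describe littermates homozygous for the floxed allele without Cre. RNA from pairs of animals was combined, which gave 4 pools per genotype, and each pool is treated as 1 sample. Every animal was kept under a light:dark cycle, and the time of day of tissue collection is not given in the sources used here. The pools held between 36095253 and 40498166 estimated counts in POMC-C451Af/f and between 37841365 and 48942116 in control. The lowest estimated count of any clock gene in any pool was 676, for Cry1. Levels are given throughout in CPM, which scales each count to the TMM-adjusted total of its pool. Pmch, which encodes melanin-concentrating hormone and was the most abundant hypothalamus marker, lay between 312 and 631 CPM. Not every hypothalamic peptide gene was abundant: Crh lay between 4.89 and 8.05 CPM, and Kiss1 did not pass the filter.

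In the core loop of the clock, ARNTL and CLOCK pair and activate genes through E-box sequences, among them the Per, Cry, Nr1d and Dbp genes. PER and CRY proteins return to repress that pair. NR1D1 and NR1D2 (REV-ERB alpha and beta) repress Arntl through RORE sequences, at which ROR receptors activate, and DBP carries the rhythm to genes with D-box sequences. In many tissues Arntl messenger RNA therefore peaks at the opposite time of day to Nr1d1 and Dbp, and the hypothalamus holds the suprachiasmatic nucleus, the master pacemaker of mammals. The comparison of these genes between pools asks whether opposite-phase genes moved against each other. The comparison between genotypes asks whether either set differed between POMC-C451Af/f and control.

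The promoter sequences show which members hold the letters of these elements near their start. RefSeq (GRCm38.p6) gave 13 windows of 300 bases, from before to just after a transcript start, for 9 of the 10 genes, Per2 being the other gene. Both strands were searched for CACGTG as the E-box, for CACGTT as an E-box variant, for TTATGTAA as the D-box and for AGGTCA as the RORE half-site. Of 32851 mouse promoters of the same length, 7.15% held the E-box, 4.68% the variant, 0.938% the D-box and 16.3% the half-site. Those shares are per window, while the counts that follow are per gene over all its windows, so the units differ. Among the 9 genes, 2 held the E-box (Per1 and Cry1), 3 the variant (Cry1, Cry2 and Nr1d1), 1 the D-box (Per3, at 2 places) and 4 the half-site (Arntl, Clock, Per1 and Nr1d2). Dbp held none of the 4 in its window, which says only that these letters are not there. The matches below are written 5′ to 3′ on the strand of the gene, with the matched letters in capitals, the variant reading AACGTG where it lies on the other strand, and they are a description and not shown to be bound.
Per1, E-box 166 bases before the start (chr11:69098763-69098808, plus strand): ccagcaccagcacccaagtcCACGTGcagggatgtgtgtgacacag
Cry1, E-box 60 bases before the start (chr10:85185089-85185134, minus strand): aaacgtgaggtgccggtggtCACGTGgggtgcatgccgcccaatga
Nr1d1, E-box variant 28 bases before the start (chr11:98775380-98775425, minus strand): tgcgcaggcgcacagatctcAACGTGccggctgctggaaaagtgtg
Cry2, E-box variant 166 bases before the start (chr2:92434210-92434255, minus strand): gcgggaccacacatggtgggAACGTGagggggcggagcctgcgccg
Per3, D-box 205 bases before the start (chr4:151044843-151044890, minus strand): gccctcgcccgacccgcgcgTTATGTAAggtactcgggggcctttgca
Per3, D-box 158 bases before the start (chr4:151044796-151044843, minus strand): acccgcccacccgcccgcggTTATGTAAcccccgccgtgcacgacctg
Nr1d2, RORE half-site 77 bases before the start (chr14:18239158-18239203, minus strand): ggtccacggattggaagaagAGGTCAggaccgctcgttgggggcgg
Arntl, RORE half-site at base 32 after the start (chr7:113207522-113207560, plus strand): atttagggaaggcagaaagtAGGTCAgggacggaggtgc

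In the GENCODE M21 annotation of GRCm38, the build at hand, the genes lie on 8 chromosomes and span from 5.12 kb (Dbp, chr7:45705088-45710203) to 107 kb (Arntl, chr7:113207465-113314126). Exons of Dbp share 539 bases with Sphk2 on the opposite strand, and those of Nr1d1 share 263 bases with Thra on the opposite strand. Cry2 shares 295 exon bases with D930015M05Rik and Arntl 33 with Gm45355, both also on the opposite strand. The library kit kept strand, but the strand setting of the counting is not given in the sources used here. Reads from these shared bases could therefore be assigned to either gene. Thra had a log2 fold change of POMC-C451Af/f over control of -0.078 (edgeR unadjusted p = 0.0486, adjusted p = 0.878). Like Nr1d1, it was highest in control replicate 1 and lowest in POMC-C451Af/f replicate 3. That of Sphk2 was -0.011 (edgeR adjusted p = 0.976). The part of shared reads in the values of Nr1d1 and Dbp was not tested.

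No clock gene differed between POMC-C451Af/f and control past the thresholds of a false discovery rate of 0.05 and an absolute log2 fold change over 0.5. With edgeR's quasi-likelihood test 0 of 10 members were called, where 4 of 18637 tested genes (0.0215%) were called in all (Efr3b, Myo7a, Mrpl48-ps and Gm44675, named after their values were seen), and DESeq2 also called 0 of 10. The 95% interval of every member's log2 fold change lay between -0.28 and 0.18, inside the threshold of 0.5 on both sides. Of the 10 members 1, Per3, had an unadjusted p under 0.05, a level reached by 5.1% of all tested genes, and DESeq2 also gave 1. The pools of the 2 genotypes did not overlap for 1 of 10 members, again Per3, where 519 of 18637 genes (2.78%) did not overlap. Shares of this size over 10 genes are near those over all genes. The median log2 fold change was -0.027 over the members, beside 0.00085 over all tested genes, and 7 of 10 had a lower mean in POMC-C451Af/f, where 9238 of 18637 genes did. As a whole-tissue measure, fewer cells of a type and less RNA per cell cannot be told apart in these values.

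**Figure D1:**
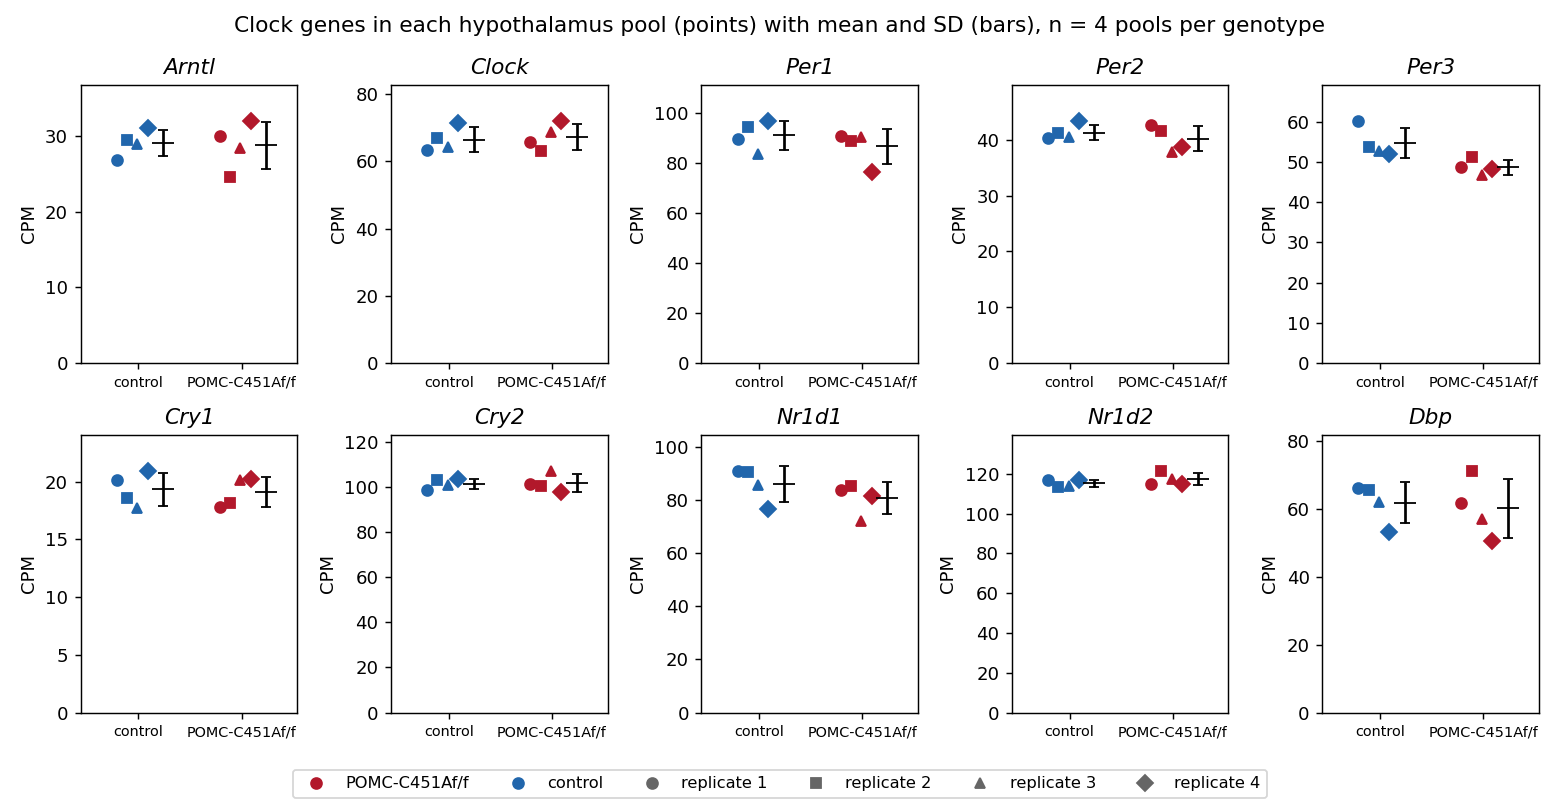
CPM of each clock gene in each pool, by genotype, with axes that start at 0; the bars give the mean and SD of 4 pools. The genotypes overlap in 9 of the 10 panels, and in the Per3 panel the POMC-C451Af/f pools (46.7 to 51.2 CPM) lie under the control pools (52 to 60.1 CPM).

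Per3, a period gene whose protein acts with PER1 and PER2 in the repressor arm, stood at 48.7, 51.2, 46.7 and 48.1 CPM in POMC-C451Af/f replicates 1 to 4 and at 60.1, 53.6, 52.8 and 52 CPM in control replicates 1 to 4. Each POMC-C451Af/f pool lay below each control pool, by a narrow gap between 51.2 and 52 CPM, and control replicate 1 was the highest of all. The log2 fold change was -0.17 (SE 0.051, 95% interval -0.28 to -0.052, 4 pools per genotype), with an adjusted p of 0.878 by edgeR over all tested genes, so Per3 did not pass the test. The size of the difference was -0.12 without control replicate 1 and -0.19 without POMC-C451Af/f replicate 2, and the adjusted p stayed at 0.468 or above in all 17 alternative settings. On library sizes scaled by total counts alone, the groups of 0 members were apart.

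Per1 and Per2 encode the other PER repressors, and Per1 is also an immediate-early gene. Per1 stood at 91, 88.9, 90.5 and 76.3 CPM in the POMC-C451Af/f pools and at 89.8, 94.4, 83.6 and 96.8 CPM in the control pools. POMC-C451Af/f replicate 4 was the lowest of the 8 and the others overlapped. The log2 fold change of Per1 was -0.072 (SE 0.063, edgeR adjusted p = 0.891). Per2 ranged from 37.9 to 42.7 CPM in POMC-C451Af/f and from 40.3 to 43.4 CPM in control, with a log2 fold change of -0.037 (SE 0.046, edgeR adjusted p = 0.92). The cryptochromes, partners of PER in repression, were as close: Cry1 averaged 19.1 ± 1.32 CPM (SD, n = 4) in POMC-C451Af/f and 19.3 ± 1.45 CPM (SD, n = 4) in control, and Cry2 102 ± 3.92 CPM (SD, n = 4) and 102 ± 2.17 CPM (SD, n = 4).

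Of the activators, Arntl stood at 30.1, 24.6, 28.5 and 32 CPM in the POMC-C451Af/f pools and at 26.9, 29.5, 29 and 31.1 CPM in the control pools. Its lowest and its highest pool were both POMC-C451Af/f, replicates 2 and 4. The log2 fold change was -0.016 (SE 0.074, edgeR adjusted p = 0.983). Clock, the partner of Arntl, stood at 65.8, 63, 68.8 and 72 CPM in POMC-C451Af/f and at 63.4, 67, 64.2 and 71.4 CPM in control. Replicate 4 was the highest pool of each genotype. The log2 fold change of Clock was 0.019 (SE 0.052, edgeR adjusted p = 0.967).

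Nr1d1, the REV-ERB alpha repressor of Arntl, stood at 83.6, 85.4, 72 and 81.5 CPM in POMC-C451Af/f and at 90.9, 90.5, 85.6 and 76.4 CPM in control. The lowest pool was POMC-C451Af/f replicate 3, and control replicate 4 lay within the POMC-C451Af/f range. The log2 fold change was -0.091 (SE 0.066, edgeR adjusted p = 0.878), -0.041 without POMC-C451Af/f replicate 3 and -0.143 without control replicate 4. Without control replicate 4 the count of members with an unadjusted p under 0.05 was 2, and so was the count whose groups did not overlap, Nr1d1 joining Per3 in both, where 1113 of 18918 tested genes (5.88%) had such a p and 1244 (6.58%) did not overlap. Nr1d2, the REV-ERB beta gene, was the steadiest member, from 115 to 122 CPM in POMC-C451Af/f and from 114 to 117 CPM in control. Its SD within genotypes was at the 3.54th percentile of tested genes.

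Dbp, an output gene of the clock whose amplitude is high in many tissues, varied most among the members. It stood at 61.8, 71.4, 57.1 and 50.7 CPM in POMC-C451Af/f and at 66.3, 65.8, 62.3 and 53.3 CPM in control. Replicate 4 was the lowest pool of each genotype, and the highest of the 8 was 1.41-fold the lowest. The log2 fold change was -0.04 (SE 0.1, 95% interval -0.26 to 0.18, edgeR adjusted p = 0.963). The SD of Dbp within genotypes was at the 76.5th percentile of tested genes, that of Arntl at the 61st, and the median over the 10 members was at the 44.2nd.

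**Figure D2:**
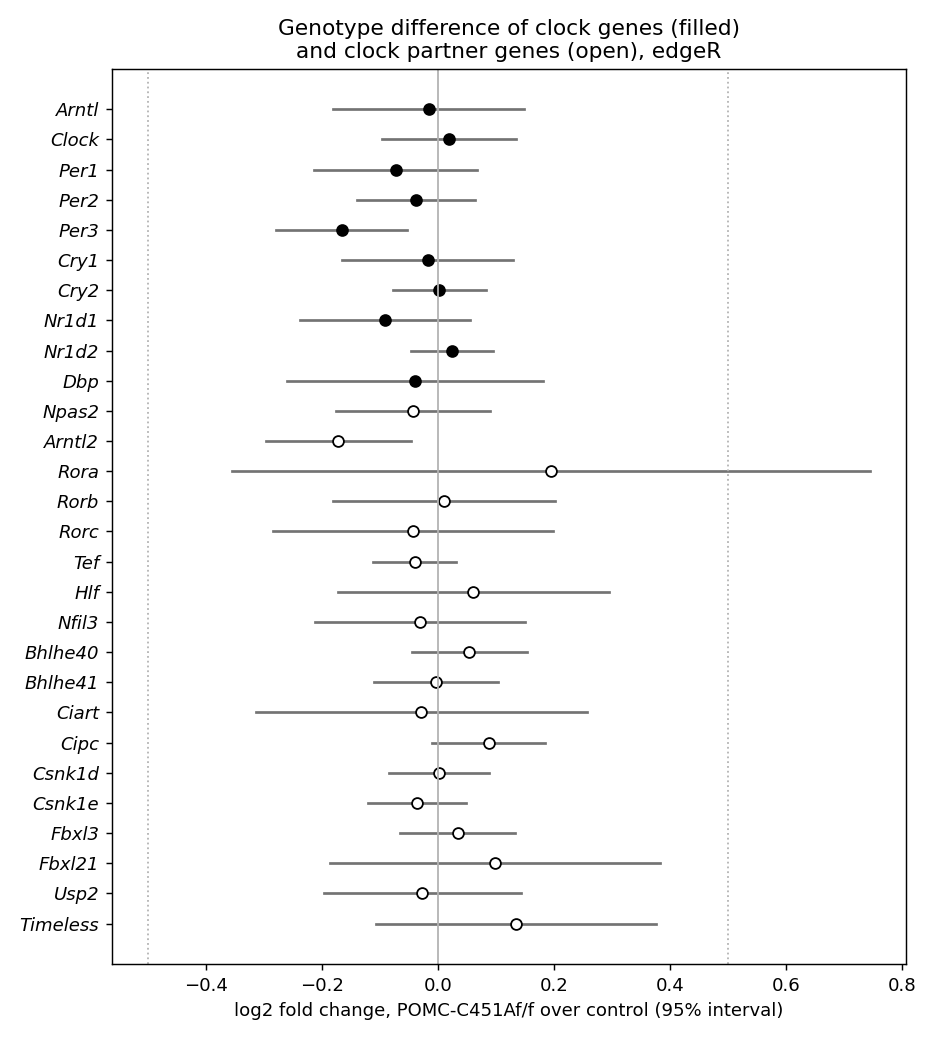
Log2 fold change of POMC-C451Af/f over control for the 10 clock genes (filled points) and 18 partner genes (open points), with 95% intervals from edgeR; dotted lines mark 0.5 in each direction. Intervals of the clock genes lie between -0.28 and 0.18, and those of Per3 and Arntl2 do not reach 0.

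Levels of different genes were compared as CPM per kb of the principal GENCODE transcript. Over the 8 pools Dbp was highest at 33.2 ± 3.81 CPM per kb (SD, n = 8), followed by Nr1d1 at 30.6 ± 2.4, Cry2 at 25.6 ± 0.739, Nr1d2 at 24.9 ± 0.549 and Per1 at 19 ± 1.37 CPM per kb. Arntl (9.74 ± 0.791), Per3 (8.61 ± 0.699), Per2 (6.99 ± 0.316), Clock (6.87 ± 0.36) and Cry1 (6.35 ± 0.426 CPM per kb) followed. The pool ranges of neighbours overlapped along this order except between Nr1d2 (lowest pool 24.3) and Per1 (highest pool 20.7), between Per1 (lowest pool 16.3) and Arntl (highest pool 10.8), and between Per3 (lowest pool 7.78) and Per2 (highest pool 7.43 CPM per kb).

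The 18 partner genes, which hold the ROR receptors, the PAR-bZIP relatives of Dbp, NFIL3, the BHLHE repressors and the kinases and ligase subunits that act on PER and CRY, were all tested and 0 were called. Of these, 9 had a higher and 9 a lower mean in POMC-C451Af/f, with a median log2 fold change of -0.0005 (-0.019 to 0.02 with a pool left out) beside 0.00085 over all tested genes. An unadjusted p under 0.05 was found for 1 of the 18, Arntl2, a relative of Arntl, beside 5.1% of all tested genes. Arntl2 stood at 12.2, 12.6, 11.2 and 11.6 CPM in POMC-C451Af/f and at 13.1, 13.5, 13.3 and 13.8 CPM in control. The groups did not overlap, but the log2 fold change of -0.17 (SE 0.057) had an edgeR adjusted p of 0.878 and did not pass. Tef, the most abundant partner, lay between 261 and 283 CPM in the 8 pools. Rora, a receptor that activates Arntl, spread more than any other partner: 50.3, 40.3, 86.1 and 71.4 CPM in POMC-C451Af/f and 38.7, 78.3, 47.9 and 51.6 CPM in control. The pools with high Rora also had high counts of the 5 thalamus markers, whose summed level was 148, 82.8, 296 and 190 CPM in POMC-C451Af/f and 48.4, 303, 110 and 97.3 CPM in control, led by Prkcd at 16.5 to 169 CPM. The part of thalamic tissue in the values of Rora was not tested.

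**Figure D3:**
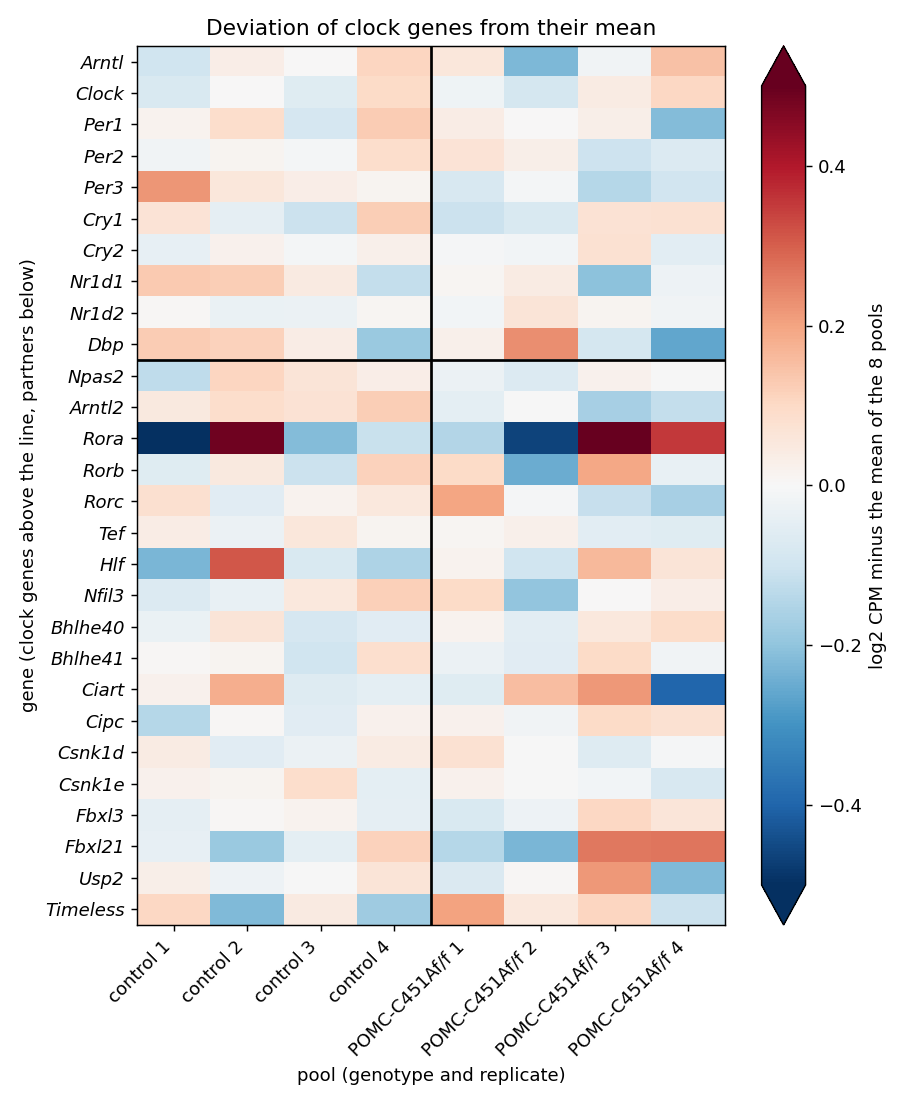
Log2 CPM of clock genes (above the line) and partner genes (below) in each pool, as the deviation from the mean of 8 pools; red is higher, blue lower, and the colours end at 0.5 in each direction, which Rora passes. Dbp and Arntl take opposite colours in both replicate 4 pools, in POMC-C451Af/f replicate 2 and in control replicate 1.

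Arntl and Clock tended to be high in the pools where Dbp was low, although 0 of the 45 pairs of members passed the test over all pairs. Arntl and Dbp had r = -0.837 over 8 pools (exact permutation p = 0.00848, adjusted p = 0.157 over 45 pairs; rho = -0.833, exact permutation p = 0.0154, adjusted p = 0.173). Arntl was highest and Dbp lowest in POMC-C451Af/f replicate 4, and the reverse held in POMC-C451Af/f replicate 2. Without these 2 pools, the farthest from the median of Arntl, r was -0.608. Clock and Dbp had r = -0.925 (exact permutation p = 0.00141, adjusted p = 0.0636; rho = -0.929, exact permutation p = 0.00223, adjusted p = 0.1), and r was -0.766 without the 2 replicate 4 pools, in which Clock was highest. Without control replicate 2 this pair alone passed, with r = -0.968 and an adjusted p of 0.00893 over the 45 permutation tests. Arntl and Clock, whose proteins pair, had r = 0.814 (exact permutation p = 0.0105, adjusted p = 0.157; rho = 0.833, exact permutation p = 0.0154, adjusted p = 0.173), and r was 0.7 without the 2 pools farthest from the median of Arntl. Nr1d1, the other gene of opposite phase to Arntl, was also negative with Arntl and with Clock but did not pass: Arntl and Nr1d1 had r = -0.316 (exact permutation p = 0.45, adjusted p = 0.891; rho = -0.405, exact permutation p = 0.327, adjusted p = 0.817), with r = -0.361 without those 2 pools. Clock and Nr1d1 had r = -0.633 (exact permutation p = 0.0945, adjusted p = 0.428; rho = -0.667, exact permutation p = 0.0831, adjusted p = 0.467), with r = -0.638 without the 2 replicate 4 pools.

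With each genotype's mean removed, r was -0.863 for Arntl and Dbp, -0.923 for Clock and Dbp and 0.837 for Arntl and Clock. The other pairs with an unadjusted p under 0.05, of 5 in all, were Arntl with Nr1d2 and Per3 with Nr1d1. Arntl and Nr1d2 had r = -0.724 (exact permutation p = 0.0462, adjusted p = 0.416; rho = -0.476, exact permutation p = 0.243, adjusted p = 0.729). This relation rested on POMC-C451Af/f replicate 2, without which r was -0.24. Per3 and Nr1d1 had r = 0.727 (exact permutation p = 0.0408, adjusted p = 0.416; rho = 0.857, exact permutation p = 0.0107, adjusted p = 0.173), and r fell to 0.375 without control replicate 1 and POMC-C451Af/f replicate 3. Per1 and Per2 had r = -0.185 and 0.0041 with Arntl and r = 0.328 and 0.247 with Dbp, none with an exact permutation p under 0.05. Without the 2 pools farthest from the median of the first gene of each pair, in the order of the gene list, these were 0.503 and 0.689 with Arntl and -0.635 and 0.656 with Dbp, so the values over 8 pools depend on 2 of them.

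**Figure D4:**
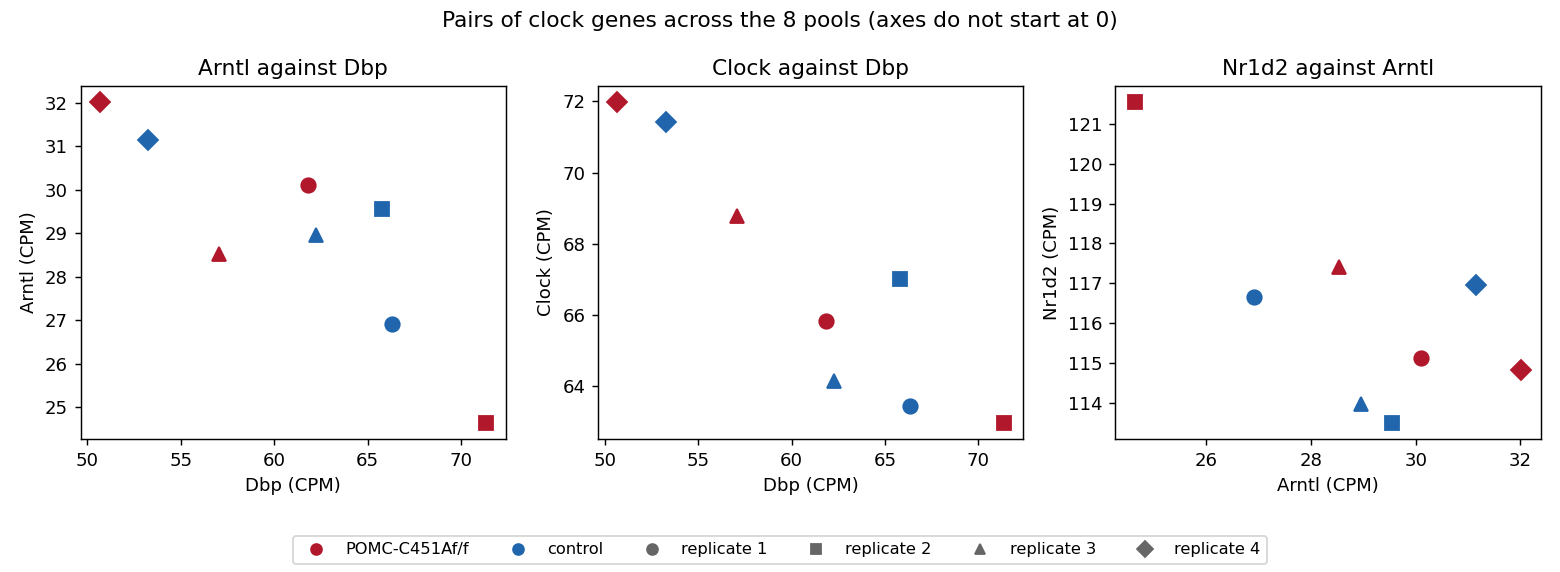
CPM of pairs of clock genes across the 8 pools, coloured by genotype and shaped by replicate number. Arntl and Clock are lower in pools where Dbp is higher (r = -0.837 and -0.925), and the trend of Nr1d2 over Arntl is set by POMC-C451Af/f replicate 2.

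The log2 ratio of Dbp to Arntl, a single value that joins these genes of opposite phase, was 1.03, 1.52, 0.988 and 0.654 in the POMC-C451Af/f pools and 1.29, 1.14, 1.09 and 0.765 in the control pools. The highest and the lowest pool were both POMC-C451Af/f and enclosed every control pool. The mean was 1.05 ± 0.355 (SD, n = 4) in POMC-C451Af/f and 1.07 ± 0.22 (SD, n = 4) in control, a difference of -0.025 that was far smaller than either SD. Between the extreme pools the ratio itself changed 1.82-fold. With Per2 in place of Dbp the means were 0.48 ± 0.199 and 0.498 ± 0.0503 (SD, n = 4 each), and with Clock in place of Arntl -0.17 ± 0.288 and -0.107 ± 0.214 (SD, n = 4 each). The mean ratio thus differed by less than the spread between pools under each choice of genes, while the pools of each genotype were spread along it. Dbp (r = -0.94) and Arntl (r = 0.775) also varied with the length trend of the pools described below. The part of that trend in the spread of the ratio was not tested. The time of day at which each pool was collected was not tested.

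A library-wide measure separated the same pools. For each pool, the rank correlation across genes between transcript length and the gene's log2 deviation from the mean of the 8 pools was taken as its length trend; genes are not independent replicates, and the value serves as a description of a pool. The length trend was -0.056, -0.149, 0.055 and 0.282 in POMC-C451Af/f replicates 1 to 4 and -0.237, -0.078, -0.077 and 0.168 in control replicates 1 to 4. Long transcripts were thus relatively more abundant in both replicate 4 pools. The principal transcript of Dbp has 1837 nt and a GC content of 61.6%, that of Clock 9744 nt and 40.9%, and that of Arntl 2976 nt and 47.7%. Dbp followed the length trend with r = -0.94 (exact permutation p = 0.000769, adjusted p = 0.0381 over 150 relations of 15 pool measures with 10 genes; rho = -0.976, exact permutation p = 0.000397, adjusted p = 0.0595), and r was -0.794 without the 2 extreme pools. Clock followed it with r = 0.947 (exact permutation p = 0.000347, adjusted p = 0.0381; rho = 0.905, exact permutation p = 0.00456, adjusted p = 0.171), with r = 0.852 without those 2 pools. Arntl had r = 0.775 (exact permutation p = 0.0242, adjusted p = 0.281; rho = 0.81, r = 0.543 without those 2 pools). Nr1d1 had r = -0.648 (exact permutation p = 0.0811, adjusted p = 0.442; rho = -0.833, exact permutation p = 0.0154, adjusted p = 0.21), with r = -0.817 without those 2 pools. The matching trend over GC content had r = 0.934 with Dbp (exact permutation p = 0.00102, adjusted p = 0.0381; rho = 0.881, r = 0.819 without 2 pools). With Clock the GC trend had r = -0.877 (exact permutation p = 0.00565, adjusted p = 0.152; rho = -0.714, r = -0.525 without 2 pools).

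**Figure D5:**
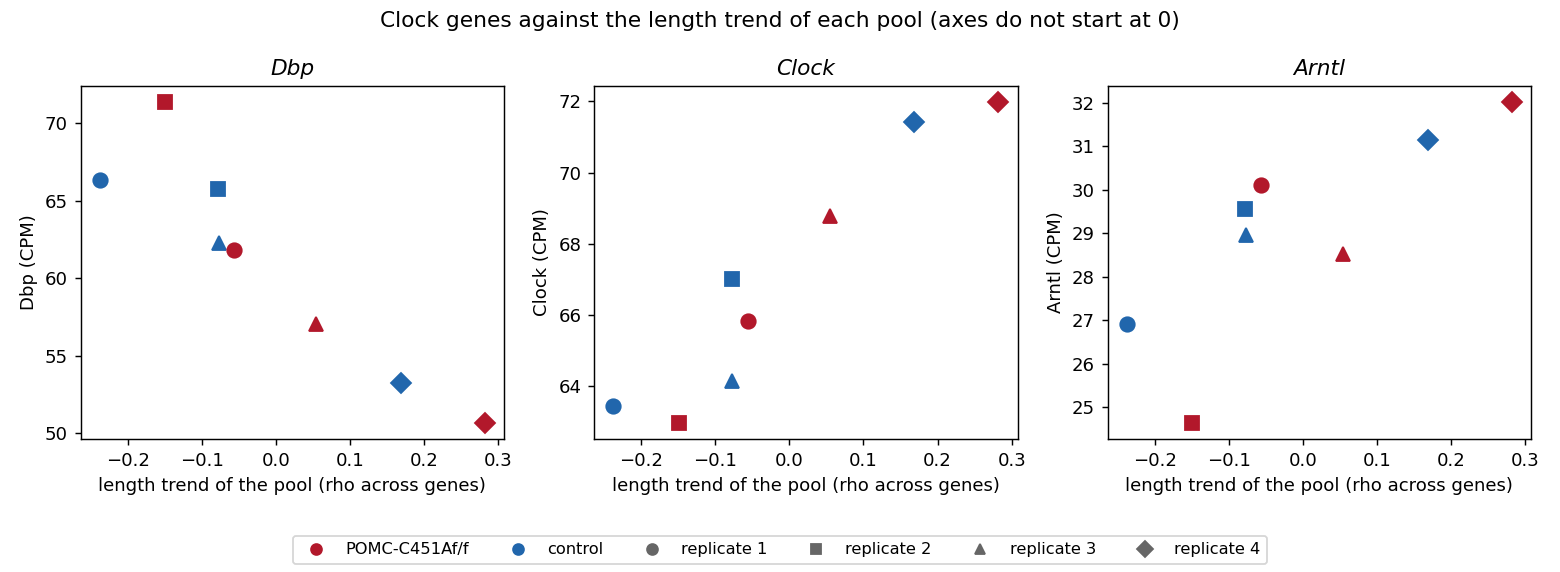
CPM of Dbp, Clock and Arntl against the length trend of each pool, a rank correlation across genes between transcript length and deviation from the mean. Both replicate 4 pools have the highest length trend (0.282 and 0.168), the lowest Dbp and the highest Clock and Arntl.

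Removing from each gene the part that a pool's trend over length and GC content gives for a transcript of its size, a step chosen after the data were seen, left r = -0.84 for Arntl and Dbp, -0.539 for Clock and Dbp, 0.683 for Arntl and Clock, -0.198 for Arntl and Nr1d1 and -0.197 for Clock and Nr1d1. The part removed was small for Arntl (-0.011 to 0.0082 on the log2 scale) and larger for Clock (-0.077 to 0.103) and Dbp (-0.046 to 0.027). After the same step Arntl and Nr1d2 had r = -0.923 (exact permutation p = 0.00154, adjusted p = 0.0692). Nr1d2 and Dbp had r = 0.839 (exact permutation p = 0.00843, adjusted p = 0.129), where r was 0.322 before the step. Again none of the 45 pairs passed. Regressing the length trend out of both genes, a harsher step with 8 pools, gave -0.503 for Arntl and Dbp, -0.315 for Clock and Dbp, 0.394 for Arntl and Clock and -0.908 for Arntl and Nr1d2. The relations of Clock with Dbp and with Arntl were therefore smaller after either step and that of Arntl and Dbp was smaller after one of them. What sets the length trend of a pool was not tested.

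Genes outside the clock followed Dbp and Arntl at least as closely as the members did, given as a description over 8 pools with no test. Among 12397 genes with a mean of 5 CPM or more, the 5 most like Dbp were Gm10275, Abcc10, Ddx55, Gm37090 and Txndc5 (r = 0.961 to 0.97), and among the most opposite were Atl1, Fam120a, Arhgap5 and Stam (r = -0.99 to -0.974). The closest member to Dbp was Nr1d1 at rank 1241 (r = 0.663). On the opposite side, Clock was at rank 12310 (r = -0.925) and Arntl at rank 11858 (r = -0.837) of 12396. Transcripts of the 400 genes with r of 0.8 or more with Dbp had a median of 1967 nt, and those of the 811 genes with r of -0.8 or less a median of 5313 nt, beside 3225 nt over all. The genes most like Arntl were Fam160b1, Srgap2, Kmt2e, Zfp791 and Gm45140 (r = 0.937 to 0.964), and the most opposite were Aldh2, Lbp, Sgsh, Ngdn and Coa3 (r = -0.962 to -0.951), with Clock at rank 179.

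Per3 tended to be lower in pools with higher levels of oligodendrocyte and midbrain dopaminergic markers, and Nr1d1 in those with higher levels of the latter. The 6 oligodendrocyte markers were all higher in POMC-C451Af/f, with a median log2 fold change of 0.16 (0.104 to 0.206 with a pool left out), but 0 were called. Mog and Mag were among the 3 with an unadjusted p under 0.05, a count of 1 to 5 with a pool left out and 6 with a replicate block. Over all tested genes 5.1% had such a p, 3.37% to 9.38% with a pool left out and 6.06% with a replicate block. The summed level of the 6 markers was 5672, 5572, 6885 and 6293 CPM in POMC-C451Af/f and 4799, 5660, 5726 and 5688 CPM in control, led by Mbp, and none was at 0. The mean log2 level of this list had r = -0.909 with Per3 (exact permutation p = 0.000942, adjusted p = 0.0381 over 150 relations; rho = -0.857, exact permutation p = 0.0107, adjusted p = 0.179), with r = -0.696 without the 2 extreme pools and r = -0.871 with genotype means removed. With Nr1d1 it had r = -0.792 (exact permutation p = 0.0179, adjusted p = 0.244; rho = -0.857, exact permutation p = 0.0107, adjusted p = 0.179), which rested on the 2 extreme pools, without which r was -0.304. Of the 12 midbrain dopaminergic markers, 11 were higher in POMC-C451Af/f with a median log2 fold change of 0.53 (0.371 to 0.644 with a pool left out), and 9 had an unadjusted p under 0.05 (Slc6a3, Th, Slc18a2, En1, Foxa2, Pitx3, Nr4a2, Aldh1a1 and Chrna6), with 0 called by edgeR and 0 by the DESeq2 run made here. The count of 9 was 5 without POMC-C451Af/f replicate 3, 11 without POMC-C451Af/f replicate 2 and 6 with robust empirical Bayes. In these settings 3.38%, 9.38% and 4.93% of all tested genes had such a p, beside 5.1% in the main fit. Slc6a3, the dopamine transporter, stood at 36.4, 12.3, 90 and 53.8 CPM in POMC-C451Af/f and at 6.9, 4.24, 15.8 and 26.4 CPM in control. The summed level of the list was 302, 235, 474 and 347 CPM in POMC-C451Af/f and 204, 194, 238 and 256 CPM in control, led by Aldh1a1, and none was at 0. The mean log2 level of this list had r = -0.814 with Per3 (exact permutation p = 0.0132, adjusted p = 0.22; rho = -0.905, r = -0.827 without 2 pools and -0.629 with genotype means removed) and r = -0.857 with Nr1d1 (exact permutation p = 0.00645, adjusted p = 0.152; rho = -0.881, r = -0.614 without 2 pools and -0.855 with genotype means removed). Dbp also tended to be lower by rank in pools with more of either list, but neither relation passed. With the oligodendrocyte list rho was -0.857 (exact permutation p = 0.0107, adjusted p = 0.179) and r was -0.585 (exact permutation p = 0.121, adjusted p = 0.489, r = -0.737 without 2 pools). With the midbrain list rho was -0.786 (exact permutation p = 0.0279, adjusted p = 0.279) and r was -0.687 (exact permutation p = 0.0612, adjusted p = 0.417, r = -0.782 without 2 pools). The part of tissue makeup in the values of Per3, Nr1d1 and Dbp was not tested.

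Markers of the suprachiasmatic nucleus, the pacemaker itself, were present in every pool. Of 12, 5 were higher and 7 lower in POMC-C451Af/f, with a median log2 fold change of -0.031 and 0 called. The direction turned with 1 pool left out, the median lying between -0.062 and 0.052. Vip, the peptide of its core, stood at 9.36, 6.42, 7.3 and 9.29 CPM in POMC-C451Af/f and at 11.8, 9.37, 7.87 and 11 CPM in control. Avp, the most abundant of the list and a peptide of other hypothalamic nuclei as well, ranged from 116 to 229 CPM and from 152 to 261 CPM, with a log2 fold change of -0.36 (SE 0.202, edgeR adjusted p = 0.878). Grp, a peptide of the retina-recipient core, had a log2 fold change of 0.3 (SE 0.123, edgeR adjusted p = 0.878) and an unadjusted p under 0.05, with levels of only 2.43 to 3.6 CPM. The summed level of the 12 was lowest in POMC-C451Af/f replicate 3 at 278 CPM and highest in control replicate 1 at 403 CPM.

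Other signals that vary over the day were read in the same way. Of 12 glucocorticoid targets, 11 were lower in POMC-C451Af/f with a median log2 fold change of -0.2, while 0 were called and 0 had an unadjusted p under 0.05. This depended on single pools. Without POMC-C451Af/f replicate 2 all 12 were lower, with a median of -0.338. In that setting 8 had an unadjusted p under 0.05, where 1773 of 18902 tested genes (9.38%) did, beside 5.1% with 8 pools. Without POMC-C451Af/f replicate 4 the median was -0.09. With no filter 4 of the 12 had such a p, beside 4.68% of all tested genes, and 0 of the 12 were called in any setting. Their summed level was 667, 826, 753 and 522 CPM in POMC-C451Af/f and 746, 781, 826 and 798 CPM in control, so that POMC-C451Af/f replicate 4 was the lowest, as it was for Per1 and Dbp. Tsc22d3, the most abundant, stood at 101 CPM in that pool and at 130 to 161 CPM in the rest. The list had r = 0.642 with Dbp (exact permutation p = 0.0794, adjusted p = 0.442; rho = 0.619, r = 0.392 without 2 pools). With Per1 the list had r = 0.602 (exact permutation p = 0.132, adjusted p = 0.497), but rho was 0 and r was -0.529 without 2 pools. Of 9 temperature genes, 1 had an unadjusted p under 0.05, the cold-inducible Cirbp, at a log2 fold change of -0.14 (SE 0.057, edgeR adjusted p = 0.878), and the pools of Rbm3, its relative, did not overlap. The list had r = 0.855 with Per2 (exact permutation p = 0.00744, adjusted p = 0.152; rho = 0.81, exact permutation p = 0.0218, adjusted p = 0.233), with r = 0.705 without 2 pools. The median of that list was -0.0071 (-0.034 to 0.02 with a pool left out), and Hspa8, its most abundant gene, lay between 2205 and 2334 CPM. Of 11 activity genes 8 were higher, with a median log2 fold change of 0.09 (0.044 without control replicate 2, and 0.153 without control replicate 4, where 4 had an unadjusted p under 0.05 beside 5.88% of all tested genes), and Nr4a3 had an unadjusted p under 0.05 at a log2 fold change of 0.33 (SE 0.146, edgeR adjusted p = 0.878), while Egr1, the most abundant, was at 0.075. Neither list had a gene called.

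The remaining lists describe the tissue. Of 15 hypothalamus markers 14 were tested, Kiss1 being under the filter, and 11 were lower in POMC-C451Af/f with a median log2 fold change of -0.19, which was -0.098 without POMC-C451Af/f replicate 3 and -0.306 without POMC-C451Af/f replicate 2. An unadjusted p under 0.05 was found by edgeR for 3, Pomc, Trh and Gal, for 1 to 6 with a pool left out, and by DESeq2 for 2, with Pomc at 0.055. Over all tested genes the shares were 5.1% by edgeR, 3.37% to 9.38% with a pool left out, and 2.81% by DESeq2. Pomc, whose promoter drives the Cre, stood at 49.5, 50.2, 35.8 and 30.6 CPM in POMC-C451Af/f and at 98.9, 49.7, 50.5 and 50.8 CPM in control, with a log2 fold change of -0.59 that was -0.28 without control replicate 1. The same control pool had the highest level of a pituitary gene: Prl, the prolactin gene, was at 1013 CPM there and at 7.83 to 163 CPM in the other pools. Of the 8 pituitary markers 4 were tested, with a median log2 fold change of -1.2 and 0 called. All 4 were lower in POMC-C451Af/f with 8 pools and all 4 were higher without control replicate 1 (median 0.73), so their direction rests on that pool. Of 6 choroid plexus markers 5 were tested, with a median of 0.088, of -0.043 to 0.622 with a pool left out, and Clic6 the most abundant. The 5 thalamus markers were all higher, with a median of 0.27 that was -0.005 without POMC-C451Af/f replicate 3, 0.961 without control replicate 2 and 0.634 with a replicate block, and 5 of 6 striatum markers were higher, with a median of 0.039 that was -0.1 without POMC-C451Af/f replicate 2, Rgs9 being the most abundant. By edgeR with 8 pools no gene of either list had an unadjusted p under 0.05, though 1 of the striatum list had one by DESeq2, with total counts, with no filter, with at least 10 counts in every pool and with a replicate block, and 4 of the 5 thalamus markers had one without control replicate 2. Over all tested genes the share was 2.81% to 6.06% in the settings named for the striatum list and 6.29% without control replicate 2. The mean log2 level of the striatum list had r = -0.788 with Arntl (exact permutation p = 0.0268, adjusted p = 0.281; rho = -0.619, r = 0.196 without 2 pools) and r = 0.807 with Nr1d2 (exact permutation p = 0.0318, adjusted p = 0.281; rho = 0.5, r = 0.259 without 2 pools). Both rested on POMC-C451Af/f replicates 2 and 4, the 2 pools left out. Esr1 itself, altered in its protein sequence by design only in cells in which the Cre was active, stood at 11.6, 12.2, 10 and 10.8 CPM in POMC-C451Af/f and at 12.3, 12.8, 11.6 and 16 CPM in control, with a log2 fold change of -0.23 (SE 0.104, edgeR adjusted p = 0.878) that was -0.13 without control replicate 4, and a level of this gene does not check the labels. The reference genes Actb and Gapdh had log2 fold changes of -0.016 and 0.001.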

How the data were processed

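Per the labels and the study's methods, poly(A) RNA was sequenced from both ends of stranded libraries and the authors quantified it with Salmon 1.10 on mouse GRCm39, after FastQC 0.12.1, and deposited estimated counts per gene, which need not be whole numbers. The authors' own table of fold changes and p-values for POMC-C451Af/f against control (DESeq2 1.40) was not used here. Estimated counts were rounded. Genes were filtered with filterByExpr (minimum count 10, minimum total 15), scaled by TMM (factors 0.984 to 1.02) and fitted on genotype with edgeR 4.0.16 (quasi-likelihood) in R 4.3.3, p-values being adjusted by Benjamini-Hochberg over all 18637 genes. CPM use TMM-scaled totals; correlations use log2(CPM + 0.5) and two-sided exact permutation tests over pairings of the 8 pools (Python 3.11.15). Of 55890 identifiers, 51424 had a symbol. Transcript length and GC content, from GENCODE M21, covered 97.9% of tested genes; positions are on GRCm38 by identifier, without conversion. The methods were tested on simulated data. Pools did not agree within sampling noise (lowest chi-square per degree of freedom 4.58). Alternatives were other scalings, filters and pseudocounts, DESeq2 1.42.0, unrounded counts, a replicate block, robust empirical Bayes, genotype means removed and each pool left out; removal of length and GC trends was added after seeing the data. Named genes are the members, list genes with an unadjusted p under 0.05 and the most abundant gene of each list, likeness genes, Esr1 and reference genes, of which some are not reported here; other genes named, such as Vip, Rora, Rbm3 and Kiss1, were chosen after their values were seen. The members and lists were chosen with earlier results of these data known.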

Additional observations from a re-analysis of the deposited data

Results flagged for a closer look

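Within each genotype, a pool far from the other 3 was found in 9 of 94 groups of 4 pools, counting the named genes, total counts, mitochondrial share and the length and GC trends; chance gives about 1 in 20. Among the clock genes there was 1: Per1 was at 76.3 CPM in POMC-C451Af/f replicate 4, below the 88.9 to 91 CPM of the other POMC-C451Af/f pools. Control replicate 1 stood apart for 5 genes. It was high for Pomc (98.9 CPM beside at most 50.8), Gal (34.5 beside at most 32.9) and Prl (1013 beside at most 68.8), and low for Mbp (2189 beside at least 2594) and Mag (161 beside at least 194). Prkcd was at 169 CPM in control replicate 2, where the next control pool was at 42.3. Clic6 was at 19.1 CPM in POMC-C451Af/f replicate 4, where the next was at 17.6. The total count of POMC-C451Af/f replicate 1 was 40498166, where the next was 36651880.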

How the results depend on the processing

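No clock gene was called under any of 18 alternatives. Genes called in all numbered 4, 13 with DESeq2, 2 with at least 10 counts in every pool, and 4 to 5 with a pool left out. Same-numbered pools had r = 0.141, -0.179, -0.109 and 0.243 between their deviations, positive for replicates 1 and 4 alone, and the shared number is not taken as a pairing; with a replicate block 2 genes were called. Members whose groups did not overlap numbered 0 with total counts and 1 to 2 with a pool left out, as did members with an unadjusted p under 0.05 (1 to 2). Over all tested genes, non-overlap numbered 513 with total counts and 872 to 1624 with a pool left out, beside 519, and p under 0.05 numbered 635 to 1773, beside 950. Pairs passing numbered 0 to 1 with a pool left out. Fold changes near 0 changed sign: Cry2 (0.0027) was -0.0058 with total counts, -0.0018 with no filter and -0.0036 with the length and GC trend removed, where Clock (0.019) was -0.018. With a pool left out, the ranges were -0.024 to 0.0203 for Cry2, -0.014 to 0.054 for Clock, -0.058 to 0.021 for Cry1, -0.0696 to 0.0497 for Arntl, -0.143 to -0.041 for Nr1d1, -0.113 to -0.016 for Per1, -0.069 to -0.0097 for Per2 and -0.13 to 0.035 for Dbp. The pituitary genes changed sign without control replicate 1, with ranges of -2.39 to 1.35 for Prl, -2.52 to 1.1 for Gh, -0.849 to 0.333 for Cga and -1.01 to 0.361 for Tshb. The difference of the Dbp to Arntl ratio was -0.18 to 0.106 with a pool left out, less than 1 SD from -0.025. Other causes of these moves were not tested.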
